A study of Mus musculus with 16 samples.

Results

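The family of miR-130 and miR-301 and that of miR-148 and miR-152 are 2 groups of small RNAs whose target-recognition ends overlap. Members were all mouse microRNAs (miRs) that the array names mmu-miR-130a, mmu-miR-130b, mmu-miR-301a, mmu-miR-301b, mmu-miR-148a, mmu-miR-148b or mmu-miR-152, which gave 7 of 577 miRs and 16 of 1712 probes. All 7 were among the 237 miRs with a probe well above background on at least 3 arrays. Their levels were read on 16 one-colour Agilent arrays, 1 array per sorted bone marrow sample, over 6 stem and progenitor populations.

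Every population came from the marrow of female C57Bl/6 mice aged 6 to 8 weeks, with marrow of several mice pooled per replicate, and no mouse was treated or carried an engineered allele. Marrow was depleted of cells with B220, CD3, GR-1 or Ter119 and enriched for c-kit. The HSC subsets, all Sca1+, were long-term stem cells (LT-HSC, CD34- FLT3-, 1 array), short-term stem cells (ST-HSC, CD34+ FLT3-, 3 arrays) and multipotent progenitors (MPP, CD34+ FLT3+, 3 arrays). The myeloid progenitors, all Sca1-, were common myeloid progenitors (CMP, intermediate for CD34 and FcRγ), granulocyte-monocyte progenitors (GMP, positive for both) and megakaryocyte-erythroid progenitors (MEP, negative for both), with 3 arrays each. HSC subsets and myeloid progenitors were obtained in separate sorts. In such bulk RNA, fewer cells with a miR and less of that miR per cell cannot be told apart.

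A miR guides the silencing complex to messenger RNAs that pair with its seed, the bases near its 5′ end, and miRs with the same seed share many predicted targets. Families with several genes can therefore keep a seed present when the level of one member falls. miR-130a is known as a platelet and megakaryocyte miR that goes down as human megakaryocytes mature, and miR-148a and miR-152 are known for targeting the DNA methyltransferase Dnmt1. Mature sequences were taken from RefSeq (GRCm38.p6), which held 6 of the 7 members. They are shown 5′ to 3′ with bases 2 to 8 in capitals, because the seed defines both families and the bases outside it tell the paralogs apart.
miR-130a: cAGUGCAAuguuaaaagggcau
miR-130b: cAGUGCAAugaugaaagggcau
miR-301a: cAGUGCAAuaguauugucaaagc
miR-148a: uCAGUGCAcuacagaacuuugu
miR-148b: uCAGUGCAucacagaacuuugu
miR-152: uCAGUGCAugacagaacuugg
miR-721: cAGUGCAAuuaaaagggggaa

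The last of these, miR-721, is no member, but it has the seed of miR-130a and is used below for contrast. The seed AGUGCAA of miR-130a, miR-130b and miR-301a is the seed CAGUGCA of miR-148a, miR-148b and miR-152 moved by 1 base, so that both hold the core AGUGCA. With positions counted from 1 at the 5′ end and the base of the miR named first given first, miR-130a and miR-130b differed at 2 of 22 bases (U11A and A13G). miR-148a and miR-148b also differed at 2 of 22 (C9U and U10C), and miR-148b and miR-152 at 2 of the 21 bases they share (C10G and U20G). miR-301a shared its first 9 bases with miR-130a and differed at 10 of 22. Paralogs this close may be read in part by each other's probes, and no array here tests that.

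The genes lie apart, with 1 exception. Mature miR-130a is at chr2:84741116-84741137 on the minus strand, outside any other annotated gene. miR-130b is at chr16:17124071-17124092 on the minus strand, and the hairpin of miR-301b, at chr16:17124400-17124496, lies 257 bases from that of miR-130b on the same strand, with both inside the span of the protein-coding gene 2610318N02Rik. miR-301a (chr11:87113054-87113076, plus strand) lies inside the span of Ska2, a gene for a spindle and kinetochore protein. miR-148b (chr15:103285185-103285206, plus strand) and miR-152 (chr11:96850439-96850459, plus strand) lie inside the spans of Copz1 and Copz2, paralogs for subunits of the COPI vesicle coat. miR-148a is at chr6:51269829-51269850 on the minus strand, inside the span of the predicted gene Gm38821. RefSeq spans were used here, so whether a miR sits in an exon or an intron was not read.

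The arrays lay on 3 slides, with CMP, GMP and MEP (arrays 1 and 2 of each) on slide 1, their arrays 3 beside LT-HSC and ST-HSC 1 on slide 2, and MPP beside ST-HSC 2 and 3 on slide 3. The LT-HSC array was the dimmest, with a summed signal of 307528 units, and GMP 2 the brightest with 3287210, and replicate arrays correlated at a Pearson r of 0.902 to 0.994 over the tested miRs. Markers of the sorted lineages stood where the labels put them: the erythroid miR-144, miR-451 and miR-486 were highest in MEP, miR-223 of granulocytes and monocytes was highest in GMP, and miR-142-3p and miR-142-5p of all blood cells were well above background on 16 of 16 arrays. miR-1, miR-122, miR-124 and miR-9 of muscle, liver and brain were well above background on at most 2 arrays. The LT-HSC array departed from its label in one respect, with miR-451 at 11.15, miR-486 at 6.34 and miR-144 at 5.29, the highest of all arrays outside MEP. Levels are log2 units of quantile-normalized signal, and a level of 1.62 is the floor to which lower signals were raised.

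**Figure D1:**
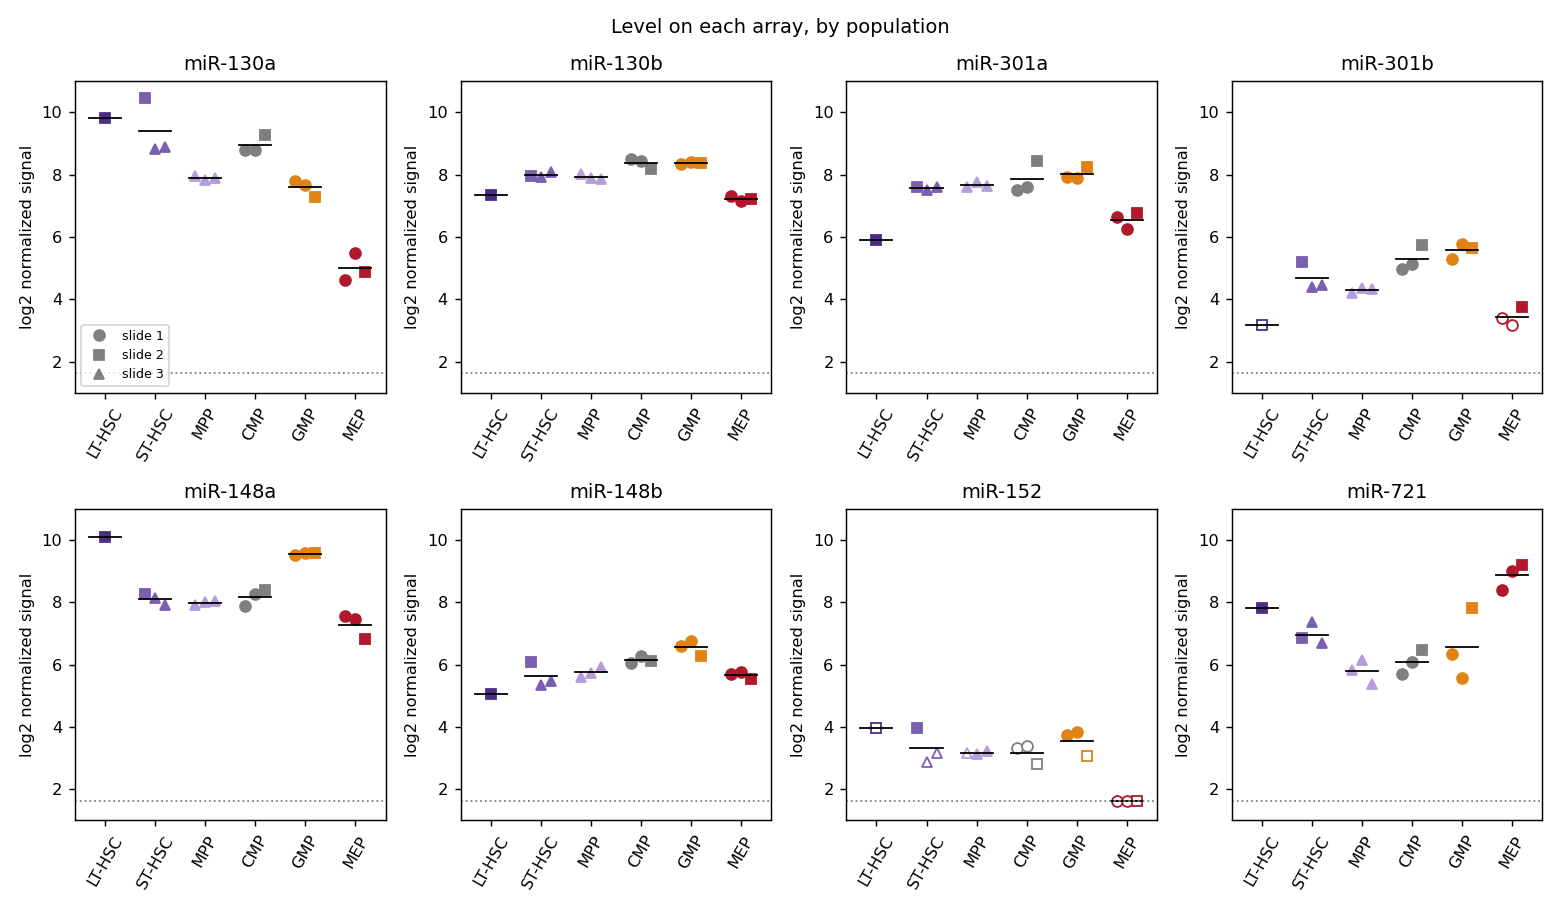
Levels of the 7 members and miR-721 (log2 normalized signal) on each array, by population. Points are arrays, their shape gives the slide, open points were not well above background, black lines are population means and the dotted line is the floor of 1.62. miR-130a in MEP (4.62 to 5.49) lies below all other arrays, while miR-721 in MEP (8.40 to 9.20) lies above them.

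The first question was which members are lost in MEP. miR-130a was at 4.62, 5.49 and 4.87 on the 3 MEP arrays, against 8.80, 8.80 and 9.28 in CMP and 7.80, 7.66 and 7.29 in GMP. Every MEP array lay at least 1.80 below every other array of the series. Against CMP and GMP, which have arrays on the same slides in the same numbers, miR-130a was lower in MEP by a log2 difference of -3.28 ± 0.33 (SE), a 9.71-fold change (limma adjusted p = 1.63e-06). It ranked 7th from the lowest of 237 differences. Over 15 other settings the difference ran from -3.65 to -1.90 and was called in each. Before normalization the miR-130a signal in MEP was 32.5, 39.7 and 19.1 units. All 3 arrays detected it above background, so the signal of its probe was reduced but not lost. Whether part of it was miR-130b, at 205.6, 133.7 and 79.2 units on the same arrays, was not tested.

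Its closest paralog, miR-130b, fell far less. miR-130b was at 7.31, 7.17 and 7.20 in MEP, at 8.51, 8.43 and 8.19 in CMP and at 8.33, 8.40 and 8.37 in GMP. MEP arrays were again below all CMP and GMP arrays, but the log2 difference was -1.14 ± 0.14 (2.21-fold, limma adjusted p = 1.02e-05). miR-301a, from another chromosome, was at 6.65, 6.26 and 6.76 in MEP, 7.50, 7.61 and 8.43 in CMP and 7.93, 7.88 and 8.26 in GMP, a difference of -1.38 ± 0.21 (2.60-fold, limma adjusted p = 7.28e-05).

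miR-301b, the neighbour of miR-130b, was a dim signal at 3.40, 3.17 and 3.75 in MEP, with 4.96, 5.13 and 5.75 in CMP and 5.29, 5.78 and 5.65 in GMP. The log2 difference was -1.99 ± 0.24 (limma adjusted p = 9.20e-06). Only 1 of the 3 MEP arrays had it well above background, against 6 of 6 in CMP and GMP, so the size of this difference is not firm. The passenger strand from the miR-130b hairpin, miR-130b*, had a similar course. It was at 3.88, 4.24 and 2.44 in MEP and at 4.92 to 6.13 in CMP and GMP, a difference of -2.16 ± 0.36 (limma adjusted p = 0.000128), with 2 of 3 MEP arrays well above background.

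miR-148a, miR-148b and miR-152 were lower in MEP as well. miR-148a was at 7.55, 7.48 and 6.82 in MEP against 7.86, 8.26 and 8.40 in CMP and 9.52, 9.58 and 9.58 in GMP, a log2 difference of -1.59 ± 0.19 (3.00-fold, limma adjusted p = 1.01e-05). Most of that distance was to GMP. miR-148b, at 5.70, 5.75 and 5.53 in MEP, 6.05, 6.29 and 6.10 in CMP and 6.29 to 6.76 in GMP, had the smallest difference of the family, -0.69 ± 0.19 (1.61-fold, limma adjusted p = 0.00552). miR-152 was at the floor of 1.62 on all 3 MEP arrays. In CMP it was at 3.32, 3.38 and 2.80 and in GMP at 3.75, 3.85 and 3.07, and it was called lower in MEP (limma adjusted p = 3.71e-05). Detection above background was reached on none of the MEP arrays and on 2 of the 6 CMP and GMP arrays, and its levels there were too close to the detection limit of the MEP arrays to give a fold. The fitted difference followed the treatment of dim signal, from -0.17 with normexp correction to -2.71 with a floor of 1 unit.

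Thus 7 of 7 members were called lower in MEP than in CMP and GMP. Of all miRs tested, 67.5% were called in either direction and 45.1% lower, so a lower level in MEP was common on these arrays. The arrays of the sides did not overlap for 7 of 7 members, and for 39.7% of all miRs with MEP lower. The median difference was -1.59 over the members, or -1.38 with miR-152 at its bound, and -0.49 over all 237 miRs. Relative to that shift, miR-130a stood at -2.79, miR-148a at -1.10, miR-301a at -0.89, miR-130b at -0.65 and miR-148b at -0.20. miR-301b lay between miR-130a and miR-148a, and miR-152 has no firm value. No member changed direction under another scaling, but relative to the median of all miRs miR-148b was 0.08 higher after scaling to the 75th percentile of detected probes, where it was no longer called (difference -0.07, limma adjusted p = 0.68).

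**Figure D2:**
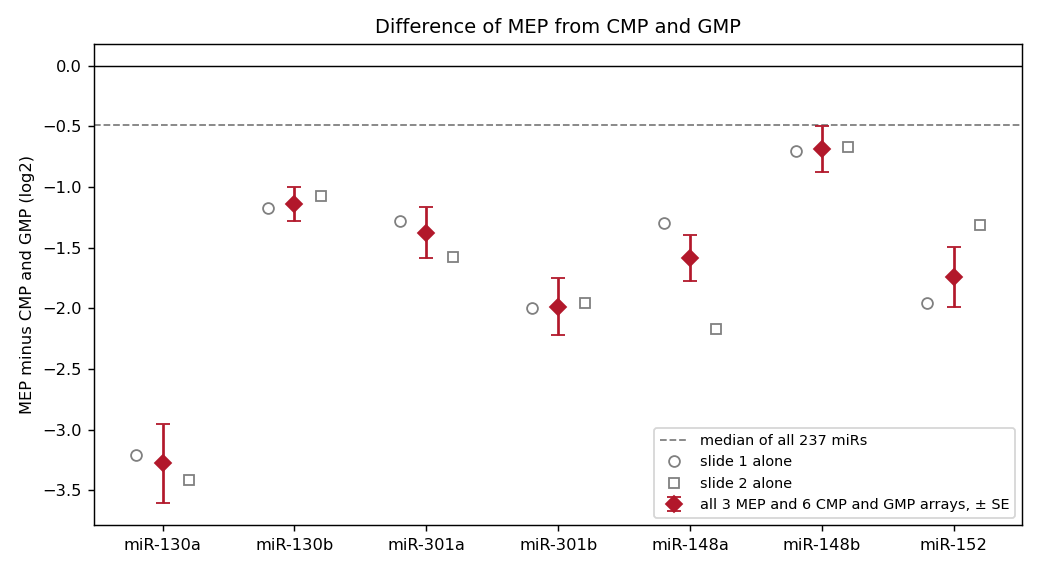
Difference in log2 level between MEP and CMP with GMP for each member. Diamonds are the fit over 3 MEP and 6 CMP and GMP arrays with its SE, open circles and squares are slides 1 and 2 taken alone, and the dashed line is the median of all 237 miRs (-0.49). miR-130a (-3.28) lies apart from the other 6 members (-0.69 to -1.99), on both slides, and the value of miR-152 depends on the floor.

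Both slides gave the same direction when taken alone, with the widest gap between them for miR-148a. On slide 1 and slide 2 in turn, the difference between MEP and the other myeloid progenitors was -3.21 and -3.41 for miR-130a. For miR-130b it was -1.18 and -1.08, and for miR-301a -1.28 and -1.58. For miR-148a it was -1.29 and -2.17. The members' other probes, which match fewer or shifted bases of the same miR, moved the same way where they were detected: the shorter probes gave -3.40 for miR-130a, -1.18 for miR-130b, -2.00 for miR-301a, -1.66 for miR-148a and -1.36 for miR-148b, where that probe was detected on 7 arrays.

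**Figure D3:**
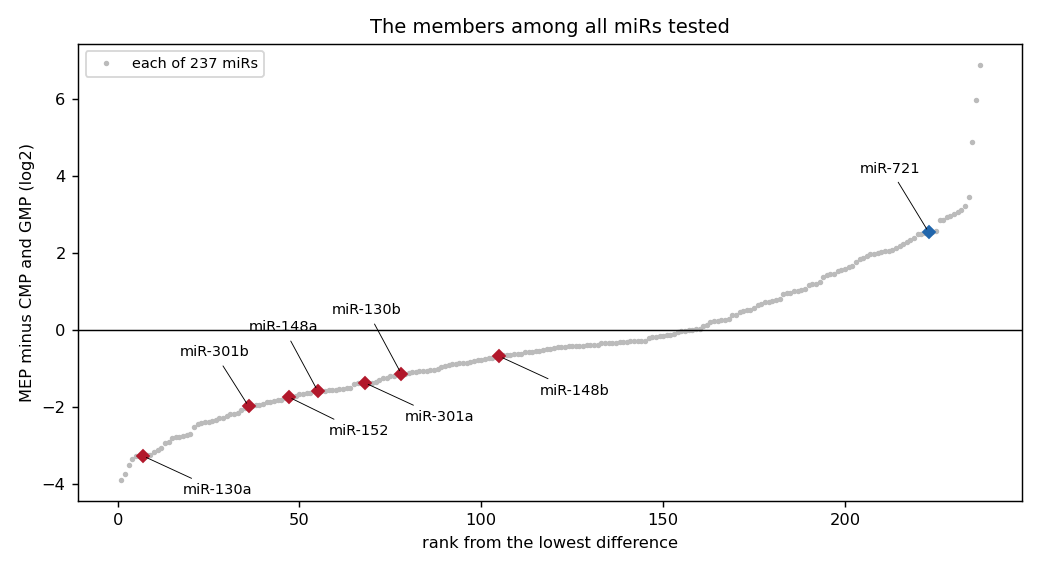
All 237 tested miRs ordered by the log2 difference between MEP and CMP with GMP. Grey points are miRs, red diamonds the 7 members and the blue diamond miR-721. miR-130a is 7th from the lowest, miR-148b is 105th, and miR-721 lies on the opposite side of 0 at 2.54.

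When MEP was set against the mean of the 5 other populations, 6 of 7 members were called lower, while 68.4% of all miRs were called and 44.3% called lower. The difference was -3.74 ± 0.30 for miR-130a (13.3-fold, limma adjusted p = 2.73e-07), and miR-148a was 2.83-fold lower (limma adjusted p = 6.68e-06). The difference was -0.77 ± 0.13 for miR-130b and -0.85 ± 0.20 for miR-301a. miR-148b was not called, at -0.17 ± 0.18 (limma adjusted p = 0.414), with a 95% interval of -0.55 to 0.21. It was called with slide as a block (-0.47, limma adjusted p = 0.00538) and from its shorter probe (-0.71, limma adjusted p = 0.0199). The MEP arrays lay below all 13 others for 4 members, miR-130a, miR-130b, miR-148a and miR-152, and for 21.9% of all miRs. For miR-130b the gap was 0.02, and its shorter probe gave only -0.33, which was not called when that probe stood for the miR (limma adjusted p = 0.21). miR-301a and miR-301b overlapped the others through the LT-HSC array, at 5.90 and 3.17, which was as low as the MEP arrays or lower.

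Whether the paralogs follow miR-130a was asked with the log2 ratio of 2 members on the same array. The levels were quantile-normalized before, which maps each array by its own curve, so array brightness need not cancel in this ratio. The ratio of miR-130a to miR-130b was -2.69, -1.68 and -2.33 in MEP, -0.53, -0.73 and -1.07 in GMP and 0.30, 0.37 and 1.08 in CMP. The mean in MEP differed from that of CMP and GMP by -2.14, and no MEP array reached the others. An exact two-sided permutation test over the 3 and 6 arrays gave p = 0.0238, which is the smallest it can give with 84 splits, and 0.0794 after adjustment over the 5 ratios tested. None of the 5 ratios passed after adjustment in this comparison.

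Against all 13 other arrays all 5 did. The difference was then -2.69 for miR-130a over miR-130b (exact permutation p = 0.00357, the smallest it can give, adjusted 0.0119) and -2.49 for miR-130a over miR-301a (exact permutation p = 0.00714, adjusted 0.0119). These 13 arrays include those of other slides and of the HSC subsets, where miR-130a is high. The permutation treats them as 1 group, although the ratio differed between their 5 populations. Neither comparison paired same-numbered arrays. Within slide 1 the ratio of miR-130a to miR-130b differed by -2.04 and within slide 2 by -2.34. So miR-130a was reduced more than miR-130b and miR-301a in MEP by about the same amount on each slide. The test missed its threshold over the 9 myeloid arrays. It passed over all 16, where it cannot separate MEP from other differences between the populations. With normexp background correction or the log2 values the authors deposited, miR-130a over miR-130b also passed over the myeloid arrays (exact permutation p = 0.0238, adjusted 0.0397). Its difference was then smaller, at -1.04 and -1.44 in turn. In these settings miR-130a over miR-301a did not pass (adjusted 0.0595).

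**Figure D4:**
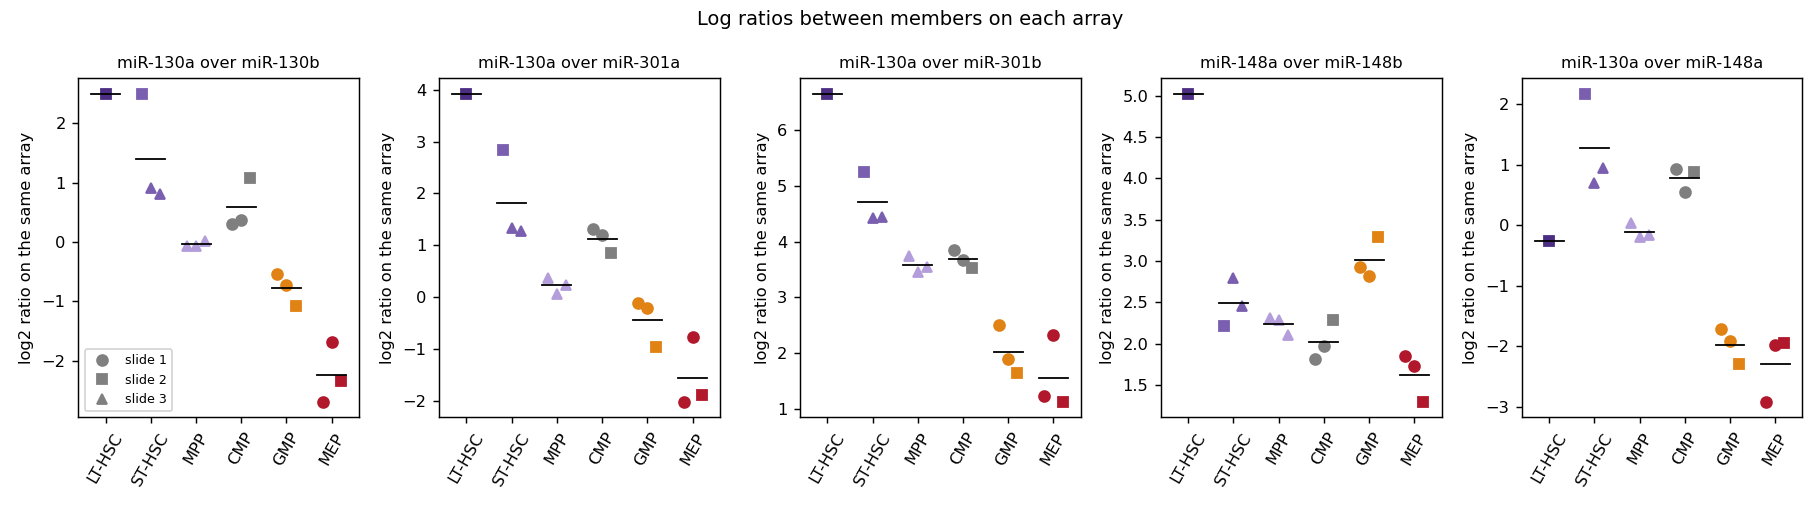
Log2 ratio of 2 members on the same array, for the 5 ratios that were tested, by population. Points are arrays with shape for slide, and black lines are population means. The ratio of miR-130a to miR-130b runs from 2.49 on the LT-HSC array to a mean of -2.23 in MEP, and that of miR-148a to miR-148b has its lowest mean in MEP (1.62), although 1 MEP array overlaps CMP.

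The ratio also differed outside MEP. Its mean for miR-130a over miR-130b was 1.40 ± 0.94 (SD, n = 3) in ST-HSC, -0.04 ± 0.05 in MPP, 0.58 ± 0.43 in CMP and -0.78 ± 0.27 in GMP, and 2.49 on the LT-HSC array. For miR-130a over miR-301b the mean was 1.55 ± 0.66 in MEP and 2.01 ± 0.45 in GMP, and MEP overlapped GMP (exact permutation p = 0.0952 against CMP and GMP, adjusted 0.119). Within the other family, miR-148a over miR-148b was 1.85, 1.72 and 1.29 in MEP, 1.81, 1.97 and 2.29 in CMP and 2.92, 2.82 and 3.29 in GMP (exact permutation p = 0.0476, adjusted 0.0794). miR-152 was well above background on 5 of 16 arrays, so its ratio was not tested.

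Over all 16 arrays miR-130b, miR-301a and miR-301b ran closer to each other than to miR-130a. As a description, the Pearson r was 0.84 for miR-130b with miR-301a, 0.89 for miR-130b with miR-301b and 0.90 for miR-301a with miR-301b. It was 0.53 for miR-130a with miR-130b, 0.35 with miR-301a and 0.44 with miR-301b. The 16 points share populations and slides. Among all tested miRs, those most like miR-130a were miR-26a (r = 0.91), miR-181a (0.91) and miR-146a (0.89), and those most like miR-301a were miR-363 (0.91), miR-340-3p (0.91) and miR-301b (0.90).

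miR-721, with the seed of miR-130a, ran the opposite way. Its level was 8.40 to 9.20 in MEP, 5.71, 6.07 and 6.46 in CMP and 6.34, 5.58 and 7.80 in GMP, a difference of 2.54 ± 0.40 (5.82-fold, limma adjusted p = 8.38e-05). MEP arrays were above all others, and the 4 probes gave 2.50 to 2.58. Those probes match only 12 to 15 bases of the miR, against 18 and 19 for the probes of miR-130a. A rise of this size in MEP was not particular to miR-721. Of all miRs, 67.5% were called between MEP and CMP with GMP, in either direction, and 45.1% were called lower. Several miRs outside both families rose by more than miR-721, up to 6.89 for miR-144. Of the other related miRs set for comparison, miR-148a* was well above background on 1 array, and miR-454, miR-148b* and miR-301b* were not on the array.

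Between GMP and CMP, 1 member of each family was called. Against CMP, miR-148a was higher in GMP by 1.39 ± 0.22 (2.62-fold, limma adjusted p = 0.00191), with GMP arrays at 9.52 to 9.58 above CMP arrays at 7.86 to 8.40. It was 7th from the highest of 237 differences. miR-130a was lower in GMP, by a difference of -1.37 ± 0.38 (2.59-fold, limma adjusted p = 0.0447), and its GMP arrays (7.29 to 7.80) lay below those of CMP (8.80 to 9.28). No other member was called, so 2 of 7 members were called where 7.59% of all miRs were, 2.95% higher and 4.64% lower. GMP and CMP arrays did not overlap for 12.2% of all miRs with GMP higher and 13.5% with GMP lower. The call for miR-130a was lost when 10 of the 16 arrays were left out in turn (difference -1.48 to -1.22, adjusted p up to 0.137), and on slides 1 and 2 alone the difference was -1.07 and -1.98.

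Apart from miR-152, the remaining members gave small differences between GMP and CMP, and with slide as a block miR-148b was called too (limma adjusted p = 0.0376). miR-130b differed by -0.01 (95% interval -0.36 to 0.34) and miR-301a by 0.18 (-0.35 to 0.70). miR-301b differed by 0.29 (-0.30 to 0.89) and miR-148b by 0.40 (-0.07 to 0.88). These intervals allow changes of up to 0.89 for miR-301b and leave less for miR-130b. miR-152 was not called (limma adjusted p = 0.589). It was detected on 2 of 3 GMP and 0 of 3 CMP arrays, so its size is not given. miR-148a and miR-148b, which differ at 2 bases, thus gave 1.39 and 0.40, and the difference between them was not tested.

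Against the mean of the 5 other populations, 5 of 7 members were called higher in GMP, while 48.1% of all miRs were called and 29.1% called higher. miR-301b was higher by 1.40 ± 0.22 (limma adjusted p = 0.000234) and miR-148a by 1.24 ± 0.18 (limma adjusted p = 0.000112). miR-301a was higher by 0.91 ± 0.20, miR-148b by 0.90 ± 0.18 and miR-130b by 0.60 ± 0.13. Low levels in MEP and on the LT-HSC array enter this mean, and no member had all GMP arrays above all others. The nearest was miR-148b, whose lowest GMP array equalled the highest CMP array at 6.29. After scaling to the 75th percentile of detected probes, miR-130b and miR-148a were still called higher, miR-130a was called lower (-0.78, limma adjusted p = 0.0352), and miR-301a, miR-301b and miR-148b were not called (0.50, 0.53 and 0.25).

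**Figure D5:**
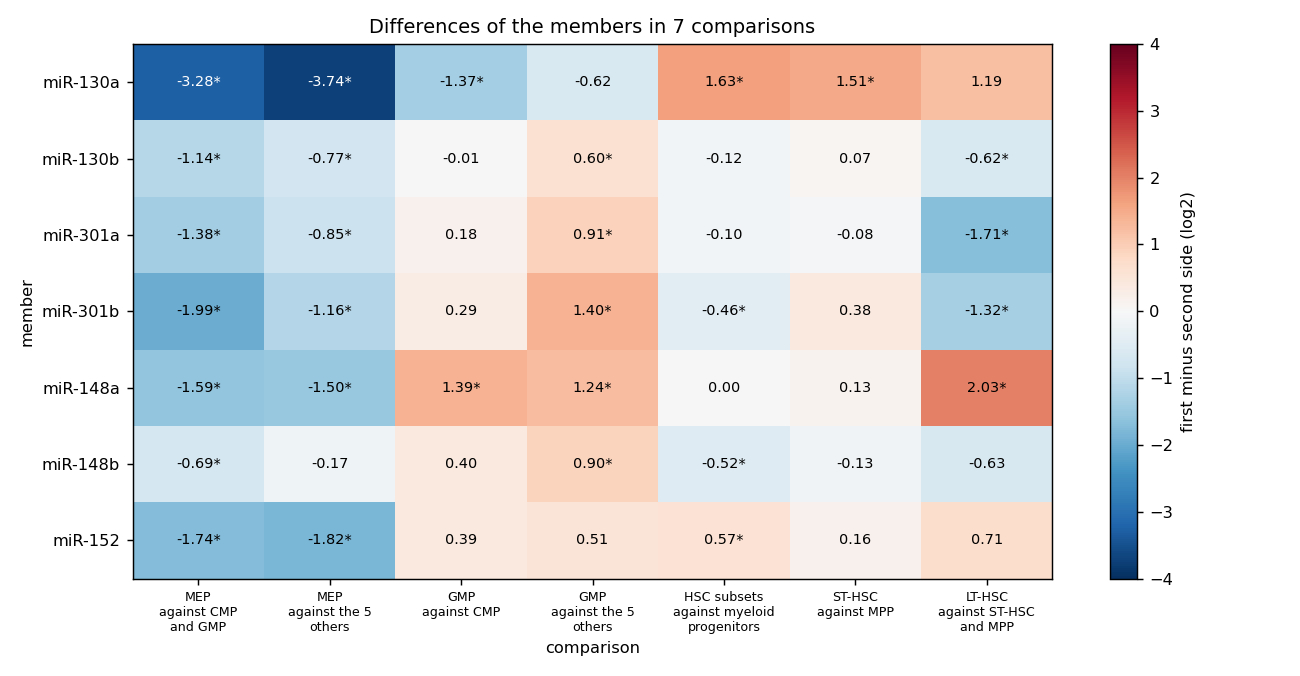
Log2 difference of each member (rows) in 7 comparisons (columns), first side minus second side, with red for higher and blue for lower on the first side. An asterisk marks a limma adjusted p under 0.05. The columns for MEP are negative for all 7 members, lowest for miR-130a (-3.28 and -3.74), and the column for GMP against CMP holds calls for miR-130a (-1.37) and miR-148a (1.39).

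On the stem cell side miR-130a stood out from its family. It was at 9.83 on the LT-HSC array, 10.45, 8.83 and 8.88 in ST-HSC and 7.95, 7.81 and 7.88 in MPP. Over the 7 HSC subset and 9 myeloid arrays it was higher in the HSC subsets by 1.63 ± 0.23 (3.09-fold, limma adjusted p = 8.05e-05). The low level in MEP enters the myeloid mean: miR-130a averaged 8.81 in the HSC subsets, 8.27 in CMP and GMP and 4.99 in MEP. The sides overlapped, since CMP arrays were above those of MPP. miR-130b and miR-301a were not called, at -0.12 (95% interval -0.34 to 0.09) and -0.10 (-0.43 to 0.23). The shorter probe of miR-130b gave -1.02 instead, from means of 6.31 and 7.32, and was called when it stood for the miR (limma adjusted p = 0.000296).

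In all, 4 of 7 members were called in this comparison, and 56.5% of all miRs were, 33.8% higher and 22.8% lower. miR-148b was lower, with a difference of -0.52 ± 0.14, and miR-301b with -0.46 ± 0.17. miR-152 was called higher (limma adjusted p = 0.0144), but it was detected on 3 of 7 HSC subset and 2 of 9 myeloid arrays, so its size is not given. Its call was lost with normexp correction (limma adjusted p = 0.182), with a floor 2 times as high (0.267) and without any 1 of the MEP arrays (0.0702 to 0.0779). miR-148b turned to 0.10 with slide as a block (limma adjusted p = 0.675), and miR-301b to -0.27 without the LT-HSC array (limma adjusted p = 0.207). The call for miR-301b held in 7 of the 16 fits with 1 array left out and in 5 of 13 other settings. miR-130a gave 2.80 with slide as a block and 3.00 on slide 2 alone, where it was not called. Slide 2 holds LT-HSC and ST-HSC 1 but no MPP array, so this value is for other samples. It is also the only slide with arrays of both sides, so the slide block relies on it. miR-148a was not called, at 0.00 (95% interval -0.29 to 0.30), with high levels in LT-HSC and GMP on opposite sides. After scaling to the 75th percentile of all probes 6 of 7 members were called, with miR-148a at -0.53 (limma adjusted p = 0.0301), miR-130b at -0.52 (0.0236) and miR-301a at -0.39 (0.0421).

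From ST-HSC to MPP, miR-130a was the only member called, where 4.64% of all miRs were and 1.27% were called higher in ST-HSC. ST-HSC was higher by 1.51 ± 0.38 (2.84-fold, limma adjusted p = 0.0364). The value leaned on ST-HSC 1, the array on slide 2: without it the difference was 0.98 (limma adjusted p = 0.0525). The ST-HSC arrays on slide 3, at 8.83 and 8.88, were still above the MPP arrays of that slide, at 7.81 to 7.95. The call held in 7 of the 16 fits with 1 array left out (limma adjusted p up to 0.128) and in 8 of 14 other settings. The sides did not overlap for miR-130a, nor for 14.3% of all miRs with ST-HSC higher. ST-HSC 1 also had the highest erythroid signals of the ST-HSC and MPP arrays, with miR-144 at 4.48, miR-451 at 8.10 and miR-486 at 3.38, and their part in the result was not tested. miR-130b and miR-301a were flat in this step, at 0.07 (95% interval -0.28 to 0.42) and -0.08 (-0.61 to 0.45).

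LT-HSC was measured once and is assumed to vary like the others, so its differences rest on the spread of the other populations. Against ST-HSC and MPP it had miR-148a at 10.08, which was 2.03 ± 0.29 higher (limma adjusted p = 0.000342), though the difference was 0.75 after scaling to the 75th percentile of all probes (limma adjusted p = 0.166) and -0.56 without normalization between arrays. It had miR-301a at 5.90, a difference of -1.71 ± 0.32 (limma adjusted p = 0.00158), and miR-301b at 3.17, not well above background, at least 1.04-fold lower (limma adjusted p = 0.0140). miR-130b was also called, at -0.62 ± 0.21 (limma adjusted p = 0.0429), and turned to 0.027 after scaling to the 75th percentile of detected probes, where miR-301a (-0.56, limma adjusted p = 0.259) and miR-301b (-0.14, 0.833) were no longer called. Thus 4 of 7 members were called, 1 higher and 3 lower, where 29.1% of all miRs were, 8.02% higher and 21.1% lower. Leaving out arrays in turn gave 3 to 6, with 6 without ST-HSC 1. This was the dimmest array and had 3 of 3 erythroid markers above ST-HSC and MPP. Their part in these values was not tested.

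miR-130a itself was not called between LT-HSC and the other HSC subsets, at 1.19 ± 0.50 (limma adjusted p = 0.0861). Its slide mate ST-HSC 1 was 0.63 higher than LT-HSC. Without ST-HSC 1 the difference was 1.46 and was called (limma adjusted p = 0.00264).

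Every member differed somewhere among the 6 populations by the moderated F test of limma, with adjusted p from 2.83e-06 for miR-130a to 0.00317 for miR-148b, as did 82.7% of all miRs. Over the 15 pairs of populations, 59 of 105 tests on the members were called, against 38.3% of the tests on all miRs. miR-130a, miR-301b and miR-148a were each called in 11 of 15 pairs, miR-130b and miR-301a in 8 and miR-148b and miR-152 in 5.

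The orders of the population means were as follows. miR-130a descended from LT-HSC (9.83) through ST-HSC (9.39), CMP (8.96), MPP (7.88) and GMP (7.59) to MEP (4.99), and the steps that differed beyond their spread were CMP to MPP (limma adjusted p = 0.0419, with 32.9% of all miRs called between this pair) and GMP to MEP (limma adjusted p = 6.09e-05, 62.9% called). miR-130b ran from CMP (8.37) and GMP (8.36) through ST-HSC (7.99), MPP (7.92) and LT-HSC (7.33) to MEP (7.23), and no neighbours differed. miR-301a ran from GMP (8.02) through CMP (7.85), MPP (7.66), ST-HSC (7.58) and MEP (6.56) to LT-HSC (5.90), with a step only from ST-HSC to MEP (limma adjusted p = 0.00284, 59.9% called). These orders differ in the place of LT-HSC, a single array, which led for miR-130a and was lowest for miR-301a. ST-HSC came next after LT-HSC for miR-130a, while for miR-301a it was near MPP, CMP and GMP and above MEP.

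miR-301b followed the order of miR-301a but for ST-HSC and MPP, from GMP (5.57) to LT-HSC (3.17), with a step from MPP to MEP (limma adjusted p = 0.0121, 71.3% called). miR-148a ran from LT-HSC (10.08) and GMP (9.56) through CMP (8.17), ST-HSC (8.11) and MPP (7.99) to MEP (7.28), with steps below GMP (limma adjusted p = 0.00191) and above MEP (0.0114). miR-148b ran from GMP (6.55) and CMP (6.15) to LT-HSC (5.06), with MEP (5.66) among the middle values, and no neighbours differed. For miR-152 the only step was the last one, from CMP (3.17) to the floor in MEP (limma adjusted p = 0.000423, 64.6% called). The miRs most like miR-148a over the 16 arrays were miR-22 (r = 0.78), miR-194 (0.74) and miR-139-5p (0.73), and those most like miR-148b were miR-191*, miR-15b* (0.89 each) and miR-32 (0.88).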

How the data were processed

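The scanner files that the authors deposited hold, per spot, an intensity background-subtracted by Agilent Feature Extraction, not normalized between arrays. They also deposited log2 values, quantile-normalized with limma per the methods, used here as an alternative. Control and flagged spots were left out and spots of a probe averaged. Quantile normalization over the 16 arrays, a floor of 3.07 units and log2 followed. To set this floor, the 95th percentile of negative control spots was read on each array, and the median of these 16 values was taken. Before normalization they were 1.53 to 3.35 units on slides 2 and 3, but 9.94 (MEP 2) to 44.3 (CMP 2) on slide 1. A dim signal on slide 1 can therefore lie above the floor and still be under most of the spread of that array's control spots. A probe was taken as well above background when the scanner software marked a share of 0.5 or more of its spots so, which held on at least 3 arrays for 493 probes of 237 miRs. Each miR was read from its brightest such probe.

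Population means were estimated in a single linear model with limma 3.58.1 in R 4.3.3, with Benjamini-Hochberg adjustment over the 237 miRs and calls at adjusted p under 0.05. HSC subsets were weighed by array, other comparisons by population. Ratios were tested with scipy 1.17.1. The labels do not say that replicates were separate preparations, but the methods pool mice per replicate, and p-values measure the spread between these arrays. Same-numbered CMP, GMP and MEP arrays deviated together (9 of 9 pairs, r of 0.227 to 0.632), where titles number arrays 1 and 2, and the unnumbered arrays taken as 3 share slide 2. No deposited column went unmapped (0). The fit was tested on simulated data. A fold with 1 side below background is a bound: the brighter side's mean against the dim arrays' detection limit.

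Members and lists were chosen with earlier results of these data known. Named miRs were the members, a fixed list sharing a seed or hairpin, the 3 miRs most correlated with each of 4 members, and lineage markers. The number of arrays limits the precision.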

Additional observations from a re-analysis of the deposited data

How the results depend on the processing

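The results on single members and ratios were compared under other settings. Of these, 1760 kept their side of the threshold, 92 lost the call, 41 gained one, 6 untested ratios moved and 3 called results reversed. Sign was not counted for results without a call. The difference of miR-148a between HSC subsets and myeloid progenitors, for example, kept its sign in 9 of 14 other settings. The count of members called lower in MEP than in CMP and GMP was within 1.5 times of 7 under all alternatives run. Without normalization between arrays, 2 of 7 members were called in MEP against the 5 other populations, 0 in GMP against CMP, 0 in HSC subsets against myeloid progenitors, 0 in ST-HSC against MPP and 30 of 105 pairs. At the 75th percentile of detected probes, 3 were called in GMP against the 5 others and 2 in HSC subsets against myeloid progenitors, where 2 were also called with slide as a block or with detection on all 16 arrays (5 members left), and 0 within slide 2, while 6 were at the 75th percentile of all probes. With slide as a block, MEP against the 5 others had 7 and GMP against CMP 3, with miR-148b gained in both. In GMP against CMP, 1 was called at the 75th percentile of all probes, with no filter on low values or with the next brightest probe, an alternative chosen after seeing the data. In ST-HSC against MPP, 0 were called in those 3 settings and with detection on all 16 arrays, and in LT-HSC against ST-HSC and MPP 2 were with the next brightest probe. Of the 5 ratios, 3 passed with normexp correction or the authors' log2 values and 5 against all 13 other arrays. The 3 reversals were miR-148b between HSC subsets and myeloid progenitors with slide as a block (0.10), and, for LT-HSC, miR-130b at the 75th percentile of detected probes (0.027) and miR-148a without normalization (-0.56). The causes were not tested.

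With each array left out in turn, the members called numbered 7 for MEP against CMP and GMP, 6 for MEP against the 5 others, 5 to 7 for GMP against the 5 others, 1 to 2 for GMP against CMP, 3 to 4 for HSC subsets against myeloid progenitors, 0 to 1 for ST-HSC against MPP, 3 to 6 for LT-HSC and 7 by the F test. They were 39 to 68 for the pairs, with 39 of 70 without LT-HSC, and no ratio passed (0). The median of all miRs in MEP against CMP and GMP shifted from -0.49 to -0.15 at the 75th percentile of detected probes, -0.97 at that of all probes and -1.05 without normalization.

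Same-numbered CMP, GMP and MEP arrays deviated together, while 3 of 21 same-numbered pairs with ST-HSC or MPP had deviations correlated over 0.1. Arrays 1 and 2 of CMP, GMP and MEP lie on slide 1 and arrays 3 on slide 2. A pairing of replicates therefore cannot be told apart from the slide in these correlations. With the replicate block over CMP, GMP and MEP alone, a fit added after seeing the data, 7 members were called in MEP against CMP and GMP and 2 in GMP against CMP, as without it. With the replicate block over all arrays, ST-HSC against MPP had 0 members called in place of 1, LT-HSC had 3 and the pairs 54.

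Signal over background limits miR-152 and miR-301b, whose values near the floor depend on it.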
